A study of Mus musculus with 14 samples.

Results

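The genes described here are 36 markers of the neural cell lineages that surround microglia in the brain, 12 of neurons, 11 of astrocytes and 13 of oligodendrocytes and their precursors. They were taken as a fixed list of gene symbols, out of 41739 genes in the deposited table, and 31 of them passed the filter for testing. The RNA was that of microglia, brain-resident phagocytes isolated by magnetic sorting (MACS), from mice that all carried floxed Rheb alleles (Rheb F/F). Rheb encodes a small GTPase that switches on the growth kinase complex mTORC1. The groups were KO LPS with 4 libraries, WT LPS with 4, KO PBS with 3 and WT PBS with 3. KO mice carried Tmem119-cre ER in addition, a tamoxifen-dependent Cre driven from a gene of microglia, and WT mice carried the floxed alleles without Cre. All mice received tamoxifen and were 8 weeks old, and on 4 days they were injected intraperitoneally with LPS, the bacterial endotoxin, at 1.0 mg/kg or with PBS. Libraries are named here by genotype, treatment and the number in their label, as in KO_LPS_1. Whether each library stands for its own animal is not stated in the labels, and the p-values below describe library-to-library spread, which may be technical.

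All 15 microglial genes examined were at 1 TPM or more in every library, and their summed level was 27300 to 53500 TPM (transcripts per 1000000, a level scaled to transcript length), against 641 to 2060 TPM for the sum of the 36 lineage genes. Reads recovered from the table came to between 8.0 and 32.3 per library in units of 1000000 reads. Rheb itself measured 25.5, 22.9, 23.1 and 19.5 TPM in KO LPS libraries, against 31.8, 32.5, 33.6 and 25.1 TPM in WT LPS libraries, and 16.6, 19.0 and 19.1 TPM in KO PBS libraries, against 29.7, 32.2 and 34.5 TPM in WT PBS libraries. Both pairs of libraries from KO and WT mice therefore ran in the labelled direction, with overlap under LPS. Of the libraries, 2 stood apart before any lineage gene was considered. Gh, the growth hormone of the pituitary, reached 19700 TPM in KO_LPS_3 and 78100 TPM in WT_PBS_914, while the other 12 libraries held 0 to 1.90 TPM, and results that rest on these 2 libraries are given with and without them. In both, the summed pituitary genes exceeded the summed microglial genes, at 32000 against 29600 TPM in KO_LPS_3 and 89100 against 40900 TPM in WT_PBS_914. All LPS libraries carried Xist at 255 to 574 TPM, and all PBS libraries carried the Y-linked Ddx3y at 111 to 146 TPM with Xist at most 0.147 TPM, although the design names female mice. Treatment and the sex of the mice cannot be told apart in any LPS to PBS comparison.

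Neurons, astrocytes and oligodendrocytes are the cells that microglia touch, support and prune. Bead-purified microglia are known to carry some of their RNA, either as whole cells that co-purify or as fragments such as myelin debris and torn processes. Neuron markers fall into cytoskeletal genes and genes of the synaptic vesicle cycle, astrocyte markers into transporters, channels and metabolic enzymes, and oligodendrocyte markers into myelin components and the transcription factors that specify the lineage. In bulk RNA, fewer cells of a type and less RNA per cell cannot be told apart, which applies to every result below.

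The lineages lay at different levels. No neuron gene averaged 10 TPM over the 14 libraries, 4 of the 12 stayed under 1 TPM in every library, and only Map2 was at 1 TPM or more throughout. All 11 astrocyte genes were at 1 TPM or more in every library and 10 of them averaged at least 10 TPM. Of the 13 oligodendrocyte genes, 10 were at 1 TPM or more in every library and 6 averaged at least 10 TPM. Summed over its genes, the neuron list gave 12.3 to 66.2 TPM in KO LPS, 9.41 to 16.0 TPM in WT LPS, 14.9 to 24.2 TPM in KO PBS and 27.0 to 90.0 TPM in WT PBS libraries. The astrocyte sum averaged 814 ± 250 TPM in KO LPS (SD, n = 4), 713 ± 192 TPM in WT LPS (SD, n = 4), 1080 ± 149 TPM in KO PBS (SD, n = 3) and 1360 ± 207 TPM in WT PBS libraries (SD, n = 3). The oligodendrocyte sum was 213 to 522 TPM in KO LPS, 166 to 678 TPM in WT LPS, 325 to 395 TPM in KO PBS and 323 to 619 TPM in WT PBS libraries.

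**Figure D1:**
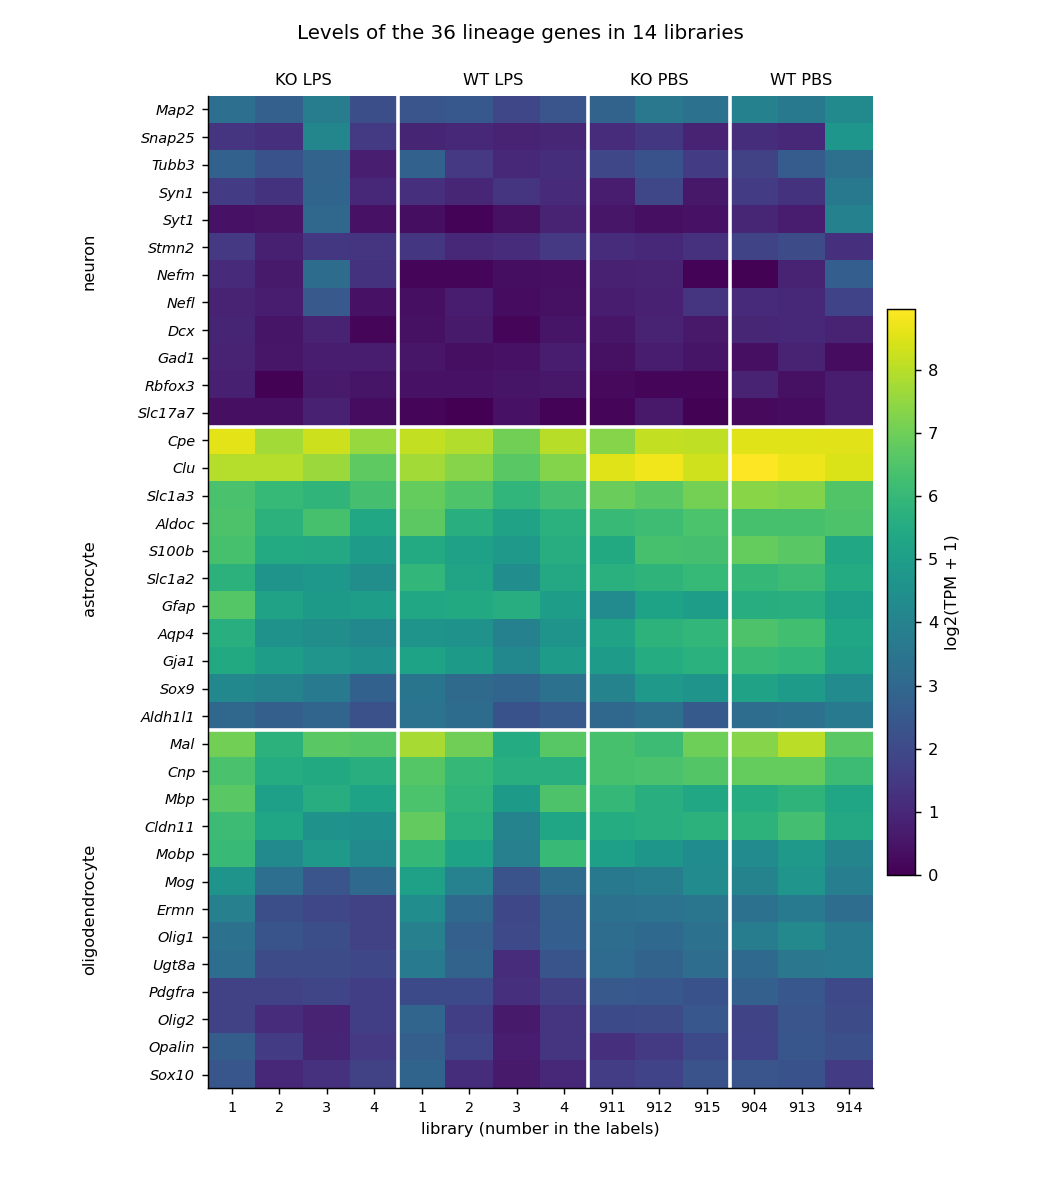
Heat map of the 36 genes (down the page, by lineage and then by mean level) in the 14 libraries (across, by group), with colour giving log2(TPM + 1). Cpe and Clu were the brightest genes, most neuron genes were dark outside KO_LPS_3 and WT_PBS_914, and 10 of the 13 oligodendrocyte genes were darkest in WT_LPS_3.

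None of the tested lineage genes was called between KO and WT libraries. The test was limma on log2(TPM + 1) with all 14 libraries in one fit, and a gene was called at a Benjamini-Hochberg adjusted p under 0.05 over 18724 genes. Under LPS, 0 of 31 members were called between KO and WT, where 0.497% of all tested genes were called. Under PBS, 0 of 31 members were called between KO and WT, where 1.02% of all tested genes were called. At an unadjusted limma p under 0.05 there were 2 members under LPS and 1 under PBS, against 2183 and 2935 of all 18724 genes. By voom on the recovered reads 0 were called in both. At an unadjusted voom p under 0.05 there were 3 and 2 members, against 2752 and 3011 of 18713 genes. Without KO_LPS_3 and WT_PBS_914, 0 of 30 members were called under LPS (0.0438% of all genes) and 0 of 30 under PBS (0.0987% of all genes). At an unadjusted limma p under 0.05 there were 0 and 1, against 1878 and 2343 of 18246 genes. The smallest adjusted p of any member was 0.389 under LPS and 0.318 under PBS by limma. Intervals were wide, with standard errors of 0.21 to 0.76 under LPS and 0.25 to 0.88 under PBS on the log2 scale, so a missing call does not show that the levels were equal.

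Between KO and WT the neuron and astrocyte medians were positive under LPS and negative under PBS, and the oligodendrocyte medians were negative under both. Under LPS the median log2 difference was 0.68 over the 7 tested neuron genes, 0.17 over the 11 astrocyte genes and -0.28 over the 13 oligodendrocyte genes, beside 0.07 over all genes. Under PBS the medians were -0.63, -0.33 and -0.17 for neuron, astrocyte and oligodendrocyte genes, beside -0.002 over all genes. The neuron medians depended on the 2 pituitary-bearing libraries: the one under LPS was 0.31 without KO_LPS_3, the one under PBS was -0.25 without WT_PBS_914, and without both libraries, with 6 neuron genes then tested, they were 0.26 and -0.32. The astrocyte median under LPS was -0.05 without KO_LPS_1, and the oligodendrocyte median under LPS was 0.12 without WT_LPS_1 and -0.63 without WT_LPS_3. Under PBS the neuron median was -1.04 without WT_PBS_904, the astrocyte median ran between -0.57 without WT_PBS_914 and -0.12 without KO_PBS_911, and the oligodendrocyte median between -0.38 without WT_PBS_914 and -0.01 without WT_PBS_913. The KO and WT libraries did not overlap for 2 members under LPS, both above in KO (Snap25 and Nefm), where 6.18% of all genes did not overlap, and for 3 members under PBS, all below in KO (Map2, Cpe and Olig1), where 25.8% of all genes did not overlap. Nefm reached 1 TPM only in KO_LPS_1, KO_LPS_3, KO_LPS_4 and WT_PBS_914, so it passed the filter through KO LPS.

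The difference between the treatments in the KO effect was tested by the interaction term, and 0 of 31 members were called, as were 0.0% of all genes. At an unadjusted limma p under 0.05 stood 3 of 31 members (Map2, Nefm and Cpe), beside 1780 of all 18724 genes. Nefm passed the filter through the KO LPS group. By voom 0 members were called, with 5 at an unadjusted p under 0.05, beside 2289 of 18713 genes. Median interactions were 1.41 for neuron, 0.50 for astrocyte and -0.04 for oligodendrocyte genes, beside 0.05 over all genes, and the neuron value was 0.54 without KO_LPS_3 and WT_PBS_914. Leaving out single libraries gave an astrocyte value of 0.26 without KO_LPS_1 and 0.76 without KO_LPS_4, and an oligodendrocyte value of 0.29 without WT_LPS_1 and -0.28 without WT_LPS_3. Without KO_LPS_3 and WT_PBS_914, 0 of 30 members were called for the interaction, as were 0.0164% of all genes. At an unadjusted limma p under 0.05 there was 1 member, beside 1290 of 18246 genes.

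**Figure D2:**
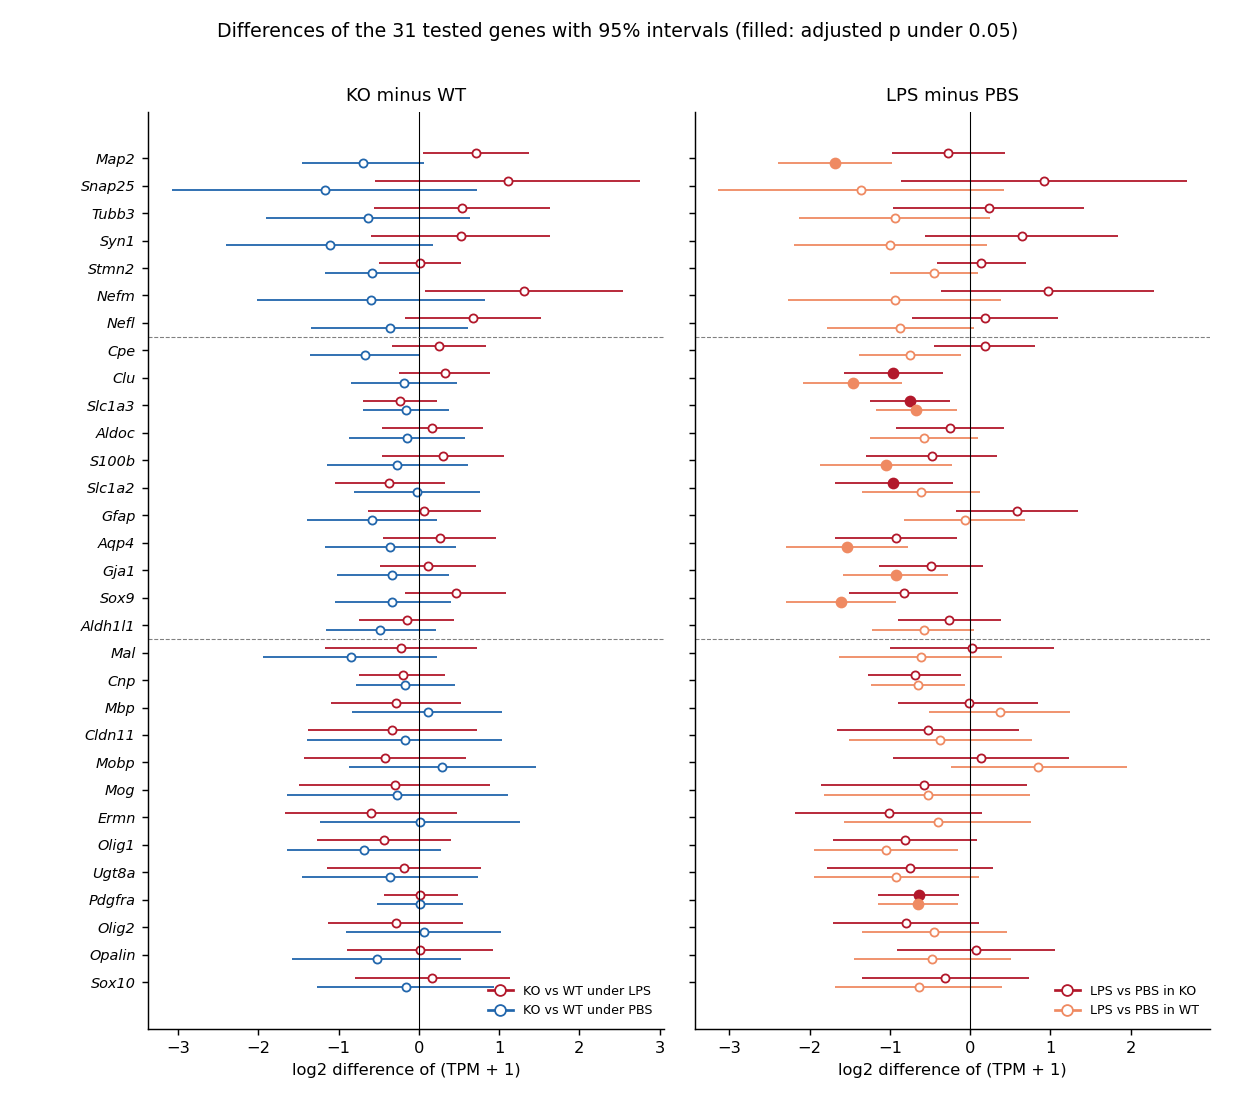
Log2 differences of (TPM + 1) for the 31 tested genes with 95% intervals from limma, KO minus WT under LPS and PBS (left) and LPS minus PBS in KO and WT (right), filled where the adjusted p was under 0.05. No KO minus WT point is filled, and the filled LPS minus PBS points, 4 in KO and 8 in WT, all lie below 0.

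Between LPS and PBS the calls in the lineage genes were all lower. In KO libraries 4 of 31 members fell with LPS (Slc1a2, Slc1a3, Clu and Pdgfra) and none rose, where 26.9% of all tested genes fell, 7.82% rose and 34.7% were called in either direction. In WT libraries 8 of 31 members fell (Sox9, Map2, Clu, Aqp4, Gja1, Slc1a3, Pdgfra and S100b) and none rose, where 34.1% of all genes fell, 7.95% rose and 42.0% were called in either direction. These shares of members, 12.9% in KO and 25.8% in WT, lay below those of all genes. The scaling of the table matters here, because the median of all genes was shifted by -0.22 in KO and -0.28 in WT between LPS and PBS. The composition of the libraries moved with treatment too, since a single gene, Gm23935, took 50000 to 73400 TPM in KO LPS and 40400 to 154000 TPM in WT LPS, against 705 to 2480 TPM in KO PBS and 566 to 2430 TPM in WT PBS. Rescaling the table without Gm23935 and the pituitary genes left 2 members called in KO and 6 in WT, all lower. In that rescaling 3467 of 18872 genes fell and 1733 rose in KO, and 5428 fell and 1701 rose in WT. After median-of-ratios scaling, which brought those medians to 0.001 and 0.008, 0 members were called in KO, with 3 at an unadjusted limma p under 0.05, and 4 in WT (Sox9, Map2, Clu and Aqp4). In that scaling 22.7% of all genes were called in KO and 29.3% in WT, and 10.3% fell in KO and 13.2% in WT. In KO 6489 of 18724 genes were at an unadjusted limma p under 0.05. Of the members, voom on the recovered reads called 0 in KO, with 4 at an unadjusted p under 0.05, where 23.8% of all genes were called and 13.2% fell, and 5 in WT, all lower, where 36% were called and 25.2% fell. In KO 6620 of 18713 genes were at an unadjusted voom p under 0.05.

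The medians of the LPS minus PBS difference in KO were 0.23 for neuron, -0.49 for astrocyte and -0.57 for oligodendrocyte genes, and in WT they were -0.94, -0.75 and -0.53. Without KO_LPS_3 and WT_PBS_914 the neuron medians were 0.04 in KO and -0.59 in WT. Leaving out single libraries moved the KO medians to between 0.08 without KO_LPS_3 and 0.70 without KO_LPS_4 for neuron genes, between -0.74 without KO_LPS_1 and -0.36 without KO_LPS_4 for astrocyte genes, and between -0.87 without KO_LPS_1 and -0.34 without KO_LPS_3 for oligodendrocyte genes. The WT medians ran between -1.34 without WT_PBS_904 and -0.56 without WT_PBS_914 for neuron genes, between -0.93 without WT_PBS_914 and -0.51 without WT_LPS_3 for astrocyte genes, and between -0.87 without WT_LPS_1 and -0.15 without WT_LPS_3 for oligodendrocyte genes. After median-of-ratios scaling the astrocyte medians were -0.23 in KO and -0.41 in WT, and those of oligodendrocyte genes -0.33 and -0.24. The LPS libraries lay wholly below the PBS libraries for 4 members in KO (Slc1a3, Clu, Pdgfra and Olig2), where 40.8% of all genes did not overlap, and for 7 members in WT (Sox9, Map2, Clu, Aqp4, Cpe, Snap25 and Nefl), where 45.9% did not overlap. Nefl reached 1 TPM only in WT_PBS_904, WT_PBS_913, WT_PBS_914, KO_PBS_915 and KO_LPS_3, so it passed the filter through WT PBS, the group in which it was higher here. The counts moved with single libraries, while the share of all genes called in the same fits lay between 24.9% and 36% in KO and between 31.3% and 43.5% in WT. In KO they were 8 without KO_LPS_1 and 7 without WT_PBS_914, 2 without KO_LPS_4, WT_LPS_2, WT_LPS_4 or WT_PBS_913, and 1 without KO_LPS_2, KO_LPS_3, KO_PBS_912 or KO_PBS_915. In WT they were 15 without WT_LPS_1, 5 without WT_LPS_3, of which 1, the myelin gene Mobp, was higher, and 4 without WT_PBS_904 or WT_PBS_913. Without both KO_LPS_3 and WT_PBS_914, 3 members were called in KO and 9 in WT, all lower, where 27.1% of all genes fell in KO and 32.7% in WT, and the added gene in WT was Cnp. The KO and WT comparisons of LPS with PBS have no difference called by the interaction test, so a call in one and not the other does not show that they differ.

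Among neuron genes, the synaptic vesicle and neurofilament genes were at 2.73 TPM or less except in 2 libraries. Snap25 had at least 30 recovered reads in every library, while the lowest counts were 8 for Syn1, 4 for Syt1, 3 for Nefl and 1 for Nefm. Snap25, a SNARE protein of vesicle fusion, measured 1.55, 1.37, 16.4 and 1.90 TPM in KO LPS libraries, 0.922, 1.03, 0.833 and 0.963 TPM in WT LPS, 1.18, 1.73 and 0.794 TPM in KO PBS, and 1.26, 1.05 and 25.4 TPM in WT PBS. Syt1, the calcium sensor of release, measured 0.356, 0.378, 7.12 and 0.349 TPM in KO LPS, 0.246, 0.0589, 0.331 and 0.822 TPM in WT LPS, 0.467, 0.277 and 0.366 TPM in KO PBS, and 0.950, 0.627 and 14.4 TPM in WT PBS. In both genes KO_LPS_3 and WT_PBS_914 stood above all other libraries. Syn1, which tethers synaptic vesicles, followed with 2.04, 1.46, 6.36 and 1.01 TPM in KO LPS, 1.37, 0.967, 1.64 and 1.09 TPM in WT LPS, 0.621, 2.73 and 0.490 TPM in KO PBS, and 1.93, 1.51 and 11.3 TPM in WT PBS. The sum of these 3 genes was 29.9 TPM in KO_LPS_3 and 51.1 TPM in WT_PBS_914, against 1.65 to 4.74 TPM in the other 12 libraries.

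Nefm and Nefl, the medium and light neurofilament subunits, shared this pattern. Nefm measured 1.13, 0.574, 8.10 and 1.51 TPM in KO LPS, 0.106, 0.127, 0.250 and 0.296 TPM in WT LPS, 0.780, 0.839 and 0.0621 TPM in KO PBS, and 0.0380, 0.821 and 5.38 TPM in WT PBS. Nefl reached 4.68 TPM in KO_LPS_3 and 2.53 TPM in WT_PBS_914 and was at most 1.54 TPM elsewhere. Every KO LPS value of Nefm lay above every WT LPS value, also leaving KO_LPS_3 aside, and the log2 difference was 1.31 with a standard error of 0.57 and a limma adjusted p of 0.392. Nefm reached 1 TPM only in KO_LPS_1, KO_LPS_3, KO_LPS_4 and WT_PBS_914, so it passed the filter through the group in which it was high, and it was not tested without KO_LPS_3 and WT_PBS_914. The pituitary list, 12 of whose 13 genes were detected (Lhb was at 0 in all libraries), summed to 2.32 to 32000 TPM in KO LPS, 1.69 to 18.4 TPM in WT LPS, 4.27 to 42.1 TPM in KO PBS and 45.8 to 89100 TPM in WT PBS. Secretory granule genes shared by neurons and endocrine cells summed to 1340 TPM in KO_LPS_3 and 2760 TPM in WT_PBS_914, against 24.9 to 330 TPM elsewhere, and the part of pituitary RNA in the vesicle and neurofilament values was not tested.

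**Figure D3:**
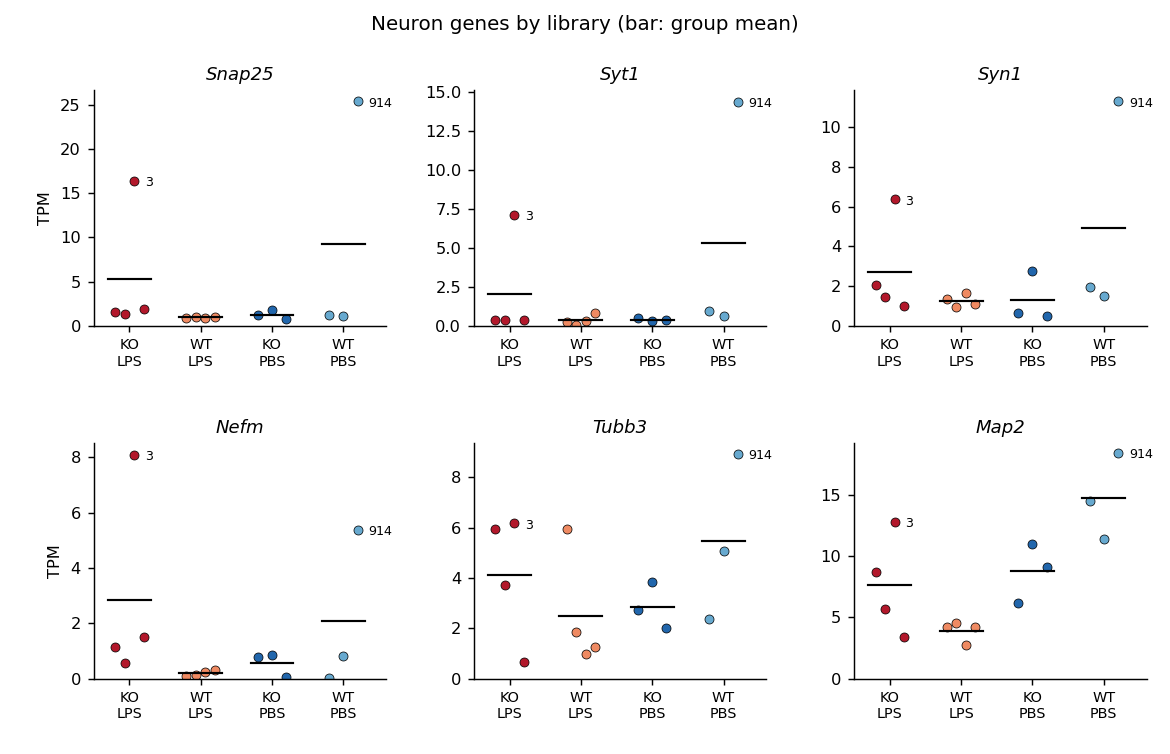
TPM of 6 neuron genes in each library (points, by group) with the group mean (bar), with KO_LPS_3 and WT_PBS_914 marked by their numbers. Snap25, Syt1, Syn1 and Nefm were high in those 2 libraries, while Map2 was lower in all 4 WT LPS libraries than in the 3 WT PBS libraries.

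The neuron gene with a call was Map2, a microtubule-associated protein of dendrites. Map2 measured 8.73, 5.66, 12.8 and 3.41 TPM in KO LPS, 4.17, 4.54, 2.73 and 4.17 TPM in WT LPS, 6.20, 11 and 9.09 TPM in KO PBS, and 14.5, 11.4 and 18.4 TPM in WT PBS. Its WT LPS libraries all lay below its WT PBS libraries, and its KO PBS libraries below its WT PBS libraries, while KO LPS overlapped both KO PBS and WT LPS. The fall with LPS in WT was -1.68 on the log2 scale with a standard error of 0.33 (limma adjusted p 0.00184), -1.39 after median-of-ratios scaling (adjusted p 0.00651) and -1.52 without KO_LPS_3 and WT_PBS_914 (adjusted p 0.00392). It was called under all 25 alternative settings, with adjusted p from 0.000616 to 0.00914. In KO the difference was -0.27 with an interval of -0.98 to 0.44 (limma adjusted p 0.56), and the interaction of 1.41 had an adjusted p of 0.45 by limma. Between KO and WT, Map2 gave 0.71 under LPS (limma adjusted p 0.389) and -0.70 under PBS (limma adjusted p 0.359).

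The remaining neuron genes gave no such contrast. Tubb3, a neuronal beta-tubulin, measured 0.667 to 6.17 TPM in KO LPS, 0.986 to 5.93 TPM in WT LPS, 2.02 to 3.83 TPM in KO PBS and 2.36 to 8.94 TPM in WT PBS. Stmn2, a regulator of microtubule stability in axons, lay between 0.711 and 3.22 TPM in all libraries. The nuclear marker Rbfox3 (NeuN), the GABA-synthesising enzyme Gad1, the vesicular glutamate transporter Slc17a7 and the microtubule protein Dcx of young neurons were under 1 TPM throughout, with Slc17a7 listed at 0 in WT_LPS_2, and with Syt1 they make up the 5 genes that were not tested. Between 1 and 23 recovered reads stood behind the Rbfox3 values and between 0 and 28 behind those of Slc17a7. Rbfox3 was at 0.119 to 0.176 TPM in KO PBS, below the 0.327 to 0.832 TPM of WT PBS, which was not tested.

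Of the 11 astrocyte genes, 3 fell with LPS in KO, or 27.3% beside 26.9% of all genes, and 6 fell in WT, or 54.5% beside 34.1% of all genes. After median-of-ratios scaling 0 fell in KO, beside 10.3% of all genes, and 3 fell in WT, or 27.3% beside 13.2% of all genes. In KO 3 were at an unadjusted limma p under 0.05, beside 6489 of all 18724 genes. Sox9, the transcription factor that sets astrocyte identity, measured 17, 15.2, 12.2 and 5.93 TPM in KO LPS, 10.3, 7.63, 6.52 and 9.27 TPM in WT LPS, 15.3, 27.6 and 24.1 TPM in KO PBS, and 35.3, 30.3 and 19.2 TPM in WT PBS. In WT the LPS libraries all lay below the PBS libraries, and in KO they overlapped through KO_LPS_1. The fall in WT was -1.61 with a standard error of 0.32 (limma adjusted p 0.00182), and the KO difference was -0.83 with a standard error of 0.32 (limma adjusted p 0.0581). Aqp4, the water channel of astrocyte endfeet, measured 48.3, 22.8, 20.8 and 17.4 TPM in KO LPS, 23.9, 23.1, 14.5 and 23.8 TPM in WT LPS, 34.6, 54.9 and 60.7 TPM in KO PBS, and 86.7, 75.5 and 37.4 TPM in WT PBS. Here too the WT groups were apart and the KO groups overlapped through KO_LPS_1, with -1.54 in WT (limma adjusted p 0.00439) and -0.92 in KO (limma adjusted p 0.0582).

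Clu, or clusterin, a secreted chaperone, fell in both genotypes. It measured 249, 252, 194 and 107 TPM in KO LPS, 210, 159, 102 and 157 TPM in WT LPS, 364, 436 and 321 TPM in KO PBS, and 499, 423 and 354 TPM in WT PBS. Every LPS library lay below every PBS library, by -0.96 in KO (standard error 0.28, limma adjusted p 0.0199) and -1.46 in WT (standard error 0.28, limma adjusted p 0.00176). After median-of-ratios scaling the KO difference was -0.69 and not called (adjusted p 0.0966), and the WT difference was -1.12 (adjusted p 0.0102). Means of Clu were 201 ± 67.8 TPM in KO LPS (SD, n = 4), 157 ± 44.1 TPM in WT LPS (SD, n = 4), 374 ± 57.6 TPM in KO PBS (SD, n = 3) and 425 ± 72.8 TPM in WT PBS (SD, n = 3).

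The glutamate transporters gave smaller differences. Slc1a3 (GLAST) measured 83.0, 62.8, 57.8 and 79.9 TPM in KO LPS, 114, 88.5, 59.3 and 77.4 TPM in WT LPS, 120, 102 and 134 TPM in KO PBS, and 165, 152 and 91.3 TPM in WT PBS. It fell by 0.75 on the log2 scale in KO, where the groups were apart, and by 0.67 in WT, where WT_LPS_1 lay above WT_PBS_914 (limma adjusted p 0.0246 in KO and 0.0337 in WT). Both calls were lost after median-of-ratios scaling, at -0.48 in KO (adjusted p 0.124) and -0.33 in WT (adjusted p 0.258). Slc1a2 (GLT-1) measured 52.6, 23.9, 26.3 and 20.4 TPM in KO LPS, 60.7, 37.1, 20.2 and 42.0 TPM in WT LPS, 51.0, 56.5 and 62.9 TPM in KO PBS, and 61.0, 70.2 and 44.4 TPM in WT PBS. It was called in KO, at -0.96 (limma adjusted p 0.0446), although KO_LPS_1 lay among the PBS values, and that call did not hold without KO_LPS_3 and WT_PBS_914 (-0.91, adjusted p 0.0832). It held under 8 of 25 alternative settings, with adjusted p from 0.00866 to 0.145. In WT the difference of Slc1a2 was -0.61 (limma adjusted p 0.165).

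Of the other astrocyte genes, Gja1 (connexin 43, the gap junction protein) and S100b (a calcium-binding protein) were called in WT. Gja1 measured 36.2, 28.3, 17.1 and 29.0 TPM in WT LPS, against 65.9, 60.4 and 35.1 TPM in WT PBS, a fall of -0.93 (limma adjusted p 0.0245), with 21.7 to 43.0 TPM in KO LPS and 29.5 to 52.3 TPM in KO PBS. S100b measured 43.4, 34.3, 27.6 and 46.5 TPM in WT LPS, against 115, 101 and 40.7 TPM in WT PBS, a fall of -1.05 (limma adjusted p 0.0414), with 30.2 to 80.4 TPM in KO LPS and 42.3 to 80.9 TPM in KO PBS. In both genes WT_PBS_914 lay among the WT LPS values. Neither call held after median-of-ratios scaling, where the differences were -0.60 for Gja1 (limma adjusted p 0.13) and -0.72 for S100b (limma adjusted p 0.158).

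Gfap, the intermediate filament that marks reactive astrocytes, did not follow the others. It measured 95.1, 34.6, 28.7 and 31.8 TPM in KO LPS, 40.2, 42.9, 46.6 and 30.7 TPM in WT LPS, 18.9, 35.9 and 30.9 TPM in KO PBS, and 46.5, 48.3 and 32.4 TPM in WT PBS. One library, KO_LPS_1, held the highest value and the other groups overlapped, with differences of 0.58 in KO (limma adjusted p 0.224) and -0.07 in WT (limma adjusted p 0.885). Cpe, the carboxypeptidase E of peptide processing, also made in neurons and endocrine cells, measured 190 to 388 TPM in KO LPS, 133 to 282 TPM in WT LPS, 162 to 280 TPM in KO PBS and 367 to 376 TPM in WT PBS. The WT PBS libraries lay above both WT LPS and KO PBS libraries, by log2 differences of -0.75 (LPS minus PBS, limma adjusted p 0.0544) and -0.67 (KO minus WT, limma adjusted p 0.318). Aldoc, the brain aldolase, spanned 35.0 to 103 TPM and Aldh1l1, a folate enzyme, 3.68 to 12.4 TPM over all libraries, and neither was called in any comparison.

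**Figure D4:**
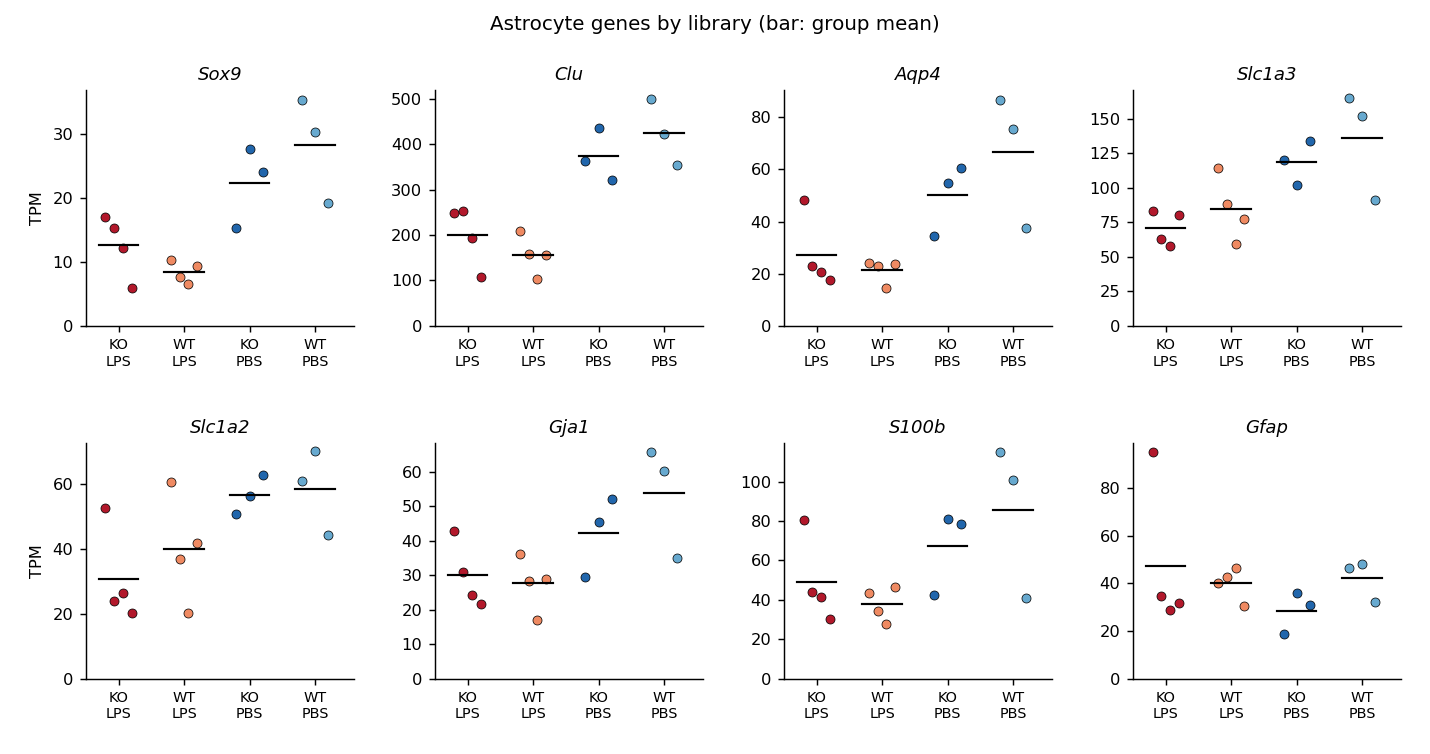
TPM of 8 astrocyte genes in each library (points, by group) with the group mean (bar). Sox9, Clu and Aqp4 were lower in every WT LPS library than in every WT PBS library, and the top KO LPS point of Aqp4, Slc1a2, S100b and Gfap is KO_LPS_1.

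Within groups the astrocyte genes moved by library rather than one by one. KO_LPS_1 was highest of its group for 10 of the 11 genes and KO_LPS_4 lowest for 9, while WT_LPS_1 was highest of its group for 9 and WT_LPS_3 lowest for 10. WT_PBS_914 was lowest of its group for 8. Markers of the ependyma and choroid plexus, the linings of the ventricles, moved in the same comparisons, and Aqp4, S100b, Sox9 and Clu are also made by ependymal cells. All 13 genes of that list were at 1 TPM or more in every library, and 12 of 13 fell with LPS in KO and 13 of 13 in WT, or 2 and 12 after median-of-ratios scaling and 7 and 13 without KO_LPS_3 and WT_PBS_914. Of all genes 26.9% fell in KO and 34.1% in WT, or 10.3% and 13.2% after scaling. Without KO_LPS_3 and WT_PBS_914 the shares of all genes were 27.1% and 32.7%. The 13 genes of the list summed to 4110 to 14800 TPM in KO LPS, 2420 to 8990 TPM in WT LPS, 11500 to 26300 TPM in KO PBS and 16800 to 22500 TPM in WT PBS. Its 5 ependymal genes alone summed to 126 to 356 TPM in KO LPS, 129 to 184 TPM in WT LPS and 345 to 617 TPM in KO PBS, and in WT PBS to 863 TPM in WT_PBS_904, 763 TPM in WT_PBS_913 and 268 TPM in WT_PBS_914. Their part in the astrocyte result was not tested.

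Oligodendrocyte genes varied widely between libraries of one group. Mog, a glycoprotein of the outer myelin surface, measured 24.2, 8.57, 4.16 and 7.32 TPM in KO LPS, 33.8, 14.6, 3.94 and 7.95 TPM in WT LPS, 11.3, 12.7 and 19.0 TPM in KO PBS, and 15.1, 24.5 and 13.3 TPM in WT PBS. The LPS libraries reached both above and below all PBS libraries. Cldn11, the tight junction claudin of myelin, behaved alike, with 70.3, 37.9, 23.0 and 21.6 TPM in KO LPS, 110, 50.5, 15.3 and 39.0 TPM in WT LPS, 45.7, 48.9 and 53.8 TPM in KO PBS, and 54.1, 77.1 and 41.6 TPM in WT PBS. KO_LPS_1 was highest of its group for 12 of the 13 oligodendrocyte genes, WT_LPS_1 highest of its group for 10, and WT_LPS_3 lowest of its group for 12 and lowest of all 14 libraries for 10.

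Set directly against each other, WT_LPS_1 exceeded WT_LPS_3 in 13 of 13 oligodendrocyte genes, with a median ratio of 6.98 and a range of 1.96 to 11.6. The same ratio had a median of 2.05 over astrocyte genes, 2.38 over 17 endothelial and mural genes and 1.12 over 15 microglial genes, and these libraries were chosen after their values were seen. Endothelial and mural genes, 16 of 17 of which were at 1 TPM or more in every library and none at 0, summed to 932 to 2750 TPM in KO LPS, 1320 to 3350 TPM in WT LPS, 1250 to 2360 TPM in KO PBS and 2050 to 3700 TPM in WT PBS. Within the LPS groups that sum was highest in KO_LPS_1 and WT_LPS_1 and lowest in KO_LPS_2 and WT_LPS_3. The part of vascular cells in the oligodendrocyte values was not tested.

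**Figure D5:**
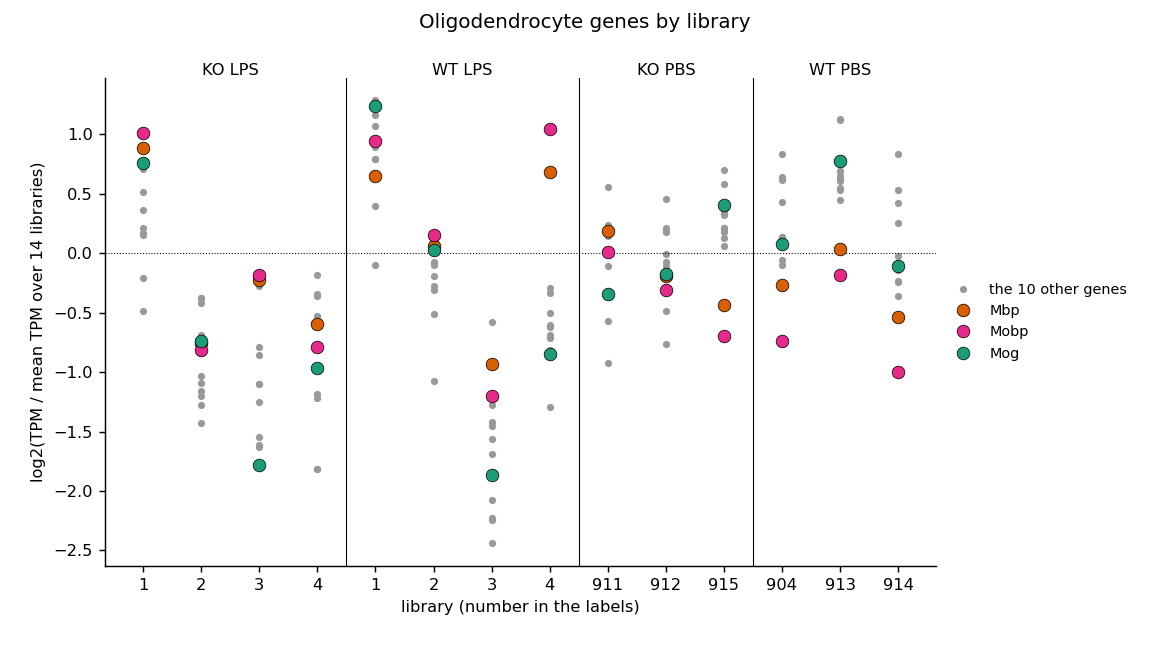
Level of each of the 13 oligodendrocyte genes in each library as log2 of its TPM over its mean of the 14 libraries, with Mbp, Mobp and Mog in colour. KO_LPS_1 and WT_LPS_1 sit high and WT_LPS_3 low for most genes, and in WT_LPS_4 Mbp and Mobp sit above Mog.

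The myelin transcripts did not keep one proportion. Mobp, a myelin-associated basic protein, measured 64.3, 18.1, 28.1 and 18.4 TPM in KO LPS, 61.4, 35.5, 13.9 and 65.9 TPM in WT LPS, 32.1, 25.7 and 19.7 TPM in KO PBS, and 19.1, 28.0 and 15.9 TPM in WT PBS. Mbp, the myelin basic protein, measured 101, 32.3, 46.7 and 36.1 TPM in KO LPS, 85.6, 57.1, 28.7 and 87.7 TPM in WT LPS, 62.1, 47.9 and 40.3 TPM in KO PBS, and 45.4, 56.1 and 37.6 TPM in WT PBS. Both messages are known to travel to the myelin sheath and to be translated there. As a ratio of TPM, Mobp over Mog was 6.75 in KO_LPS_3 and 8.29 in WT_LPS_4, 1.82 to 3.53 in the other LPS libraries, and 1.04 to 2.84 in the PBS libraries. Mog rested on 48 recovered reads in KO_LPS_3 and 87 in WT_LPS_4, and Mobp in KO_LPS_3 lay within its PBS range. Cldn11 over Mog was also highest in these libraries, at 5.52 in KO_LPS_3 and 4.90 in WT_LPS_4, and at most 4.42 elsewhere. Mobp over Mbp stayed between 0.422 and 0.752 in all 14 libraries. These ratios were chosen after the values were seen, and neither gene was called between LPS and PBS, with Mobp at 0.14 in KO (limma adjusted p 0.864) and 0.85 in WT (limma adjusted p 0.192). Without WT_LPS_3, Mobp was called higher in WT, at 1.31 (limma adjusted p 0.0287).

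The DNA before the starts of Mobp and Mog is shown for comparison, with that of a neuron gene that stayed low in most libraries. Its part in their levels was not tested. RefSeq promoter entries (build GRCm38.p6) were found for 25 of the 36 genes, and the 250 bases before each start were searched on both strands for ACAAAG, a core that SOX-family factors such as Sox10 bind, and for TCAGCACC, part of the element bound by the repressor REST. The lines give the stretch outside annotated exons, 5′ to 3′ on the gene's strand, and capitals mark each match on either strand.
Mobp (chr9:120149492-120149706, plus strand, ACAAAG or CTTTGT in capitals): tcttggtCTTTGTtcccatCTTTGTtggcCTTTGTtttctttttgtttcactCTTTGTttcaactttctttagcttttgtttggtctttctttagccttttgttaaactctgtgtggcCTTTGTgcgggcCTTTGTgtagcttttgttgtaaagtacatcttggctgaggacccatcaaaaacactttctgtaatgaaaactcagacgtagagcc
Mog (chr17:37023399-37023648, minus strand, no match to ACAAAG): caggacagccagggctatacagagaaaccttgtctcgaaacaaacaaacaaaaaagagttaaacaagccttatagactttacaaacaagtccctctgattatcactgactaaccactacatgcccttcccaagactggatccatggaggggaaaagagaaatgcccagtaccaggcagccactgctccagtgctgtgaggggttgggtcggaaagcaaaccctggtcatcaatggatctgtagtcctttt
Syn1 (chrX:20921005-20921168, minus strand, TCAGCACC in capitals): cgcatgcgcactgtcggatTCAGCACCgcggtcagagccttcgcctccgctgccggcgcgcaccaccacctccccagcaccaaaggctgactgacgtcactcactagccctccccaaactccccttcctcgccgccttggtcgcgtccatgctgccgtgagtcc
The Mobp stretch held 6 matches to ACAAAG and the Mog stretch 0. Over 32851 promoters 16.5% held at least 1 ACAAAG, as did 3 of 10 oligodendrocyte genes (Cnp, Mobp and Opalin), 4 of 8 neuron genes and 0 of 7 astrocyte genes. TCAGCACC was in 1.32% of all promoters and in 2 of 8 neuron genes (Syn1 and Tubb3). These are matches of letters within the window searched, and say nothing of binding or of the Mobp to Mog ratio.

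Among the other oligodendrocyte genes, Pdgfra, the growth factor receptor of oligodendrocyte precursors, was the one called. It measured 2.31, 2.42, 2.67 and 2.16 TPM in KO LPS, 3.02, 3.02, 1.33 and 2.28 TPM in WT LPS, 4.74, 4.42 and 3.73 TPM in KO PBS, and 5.77, 4.41 and 2.92 TPM in WT PBS. The KO groups were apart and the WT groups overlapped through WT_PBS_914, with differences of -0.64 in KO (standard error 0.23, limma adjusted p 0.0476) and -0.65 in WT (standard error 0.23, limma adjusted p 0.0387). Both calls were lost after median-of-ratios scaling (-0.44 with an adjusted p of 0.175 in KO, -0.40 with 0.189 in WT). Perivascular fibroblasts also make Pdgfra, and of the 17 endothelial and mural genes 1 rose and 3 fell with LPS in KO, at a median of 0.36, and 0 rose and 4 fell in WT, at a median of -0.40. Of all genes 7.82% rose and 26.9% fell in KO, and 7.95% rose and 34.1% fell in WT. The part of fibroblasts and vascular cells in the Pdgfra values was not tested.

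The lineage transcription factors gave no call. Olig1 measured 9.44, 3.99, 3.42 and 2.31 TPM in KO LPS, 14.1, 5.73, 2.98 and 5.33 TPM in WT LPS, 8.15, 7.37 and 9.22 TPM in KO PBS, and 12.5, 17.7 and 11.8 TPM in WT PBS. Its LPS minus PBS difference was -0.81 in KO (limma adjusted p 0.151) and -1.05 in WT (limma adjusted p 0.0579), and its KO PBS libraries lay below its WT PBS libraries. Olig2 lay between 0.876 and 2.35 TPM in KO LPS, wholly below the 3.0 to 4.4 TPM of KO PBS, at a log2 difference of -0.80 (limma adjusted p 0.16), with 0.572 to 6.61 TPM in WT LPS and 2.61 to 4.13 TPM in WT PBS. Sox10, which drives myelin genes, measured 0.979 to 4.29 TPM in KO LPS, 0.561 to 6.39 TPM in WT LPS, 2.08 to 3.94 TPM in KO PBS and 2.05 to 4.11 TPM in WT PBS.

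The remaining myelin genes spread in the same way. Mal, a myelin proteolipid, measured 53.5 to 133 TPM in KO LPS, 44.7 to 223 TPM in WT LPS, 70.7 to 125 TPM in KO PBS and 102 to 262 TPM in WT PBS. Cnp, a phosphodiesterase of myelin, measured 42.7 to 82.9 TPM in KO LPS, 47.9 to 97.3 TPM in WT LPS, 81.9 to 93.8 TPM in KO PBS and 69.6 to 114 TPM in WT PBS, with LPS minus PBS differences of -0.69 in KO (limma adjusted p 0.0633) and -0.65 in WT (limma adjusted p 0.0676). Cnp passed the threshold in WT without KO_LPS_3 and WT_PBS_914, at -0.89 (limma adjusted p 0.0283). Ermn, a cytoskeletal protein of myelinating cells, spanned 2.40 to 20.0 TPM, Ugt8a, the enzyme of galactosylceramide synthesis, 1.22 to 11.8 TPM, and Opalin, a membrane protein of mature oligodendrocytes, 0.625 to 5.54 TPM over the 14 libraries, and none of these 3 was called.

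Further genes of the same lineages, from lists chosen with the members, were read by the same fit. Between KO and WT, limma called 0 of 33 other neuron, 0 of 25 other astrocyte, 0 of 23 other oligodendrocyte and 0 of 15 reactive astrocyte genes under LPS, and likewise under PBS, with 5, 0, 0 and 0 at an unadjusted p under 0.05 under LPS and 4, 0, 1 and 4 under PBS. Of all genes 0.497% were called under LPS and 1.02% under PBS, with 2183 and 2935 of 18724 at an unadjusted limma p under 0.05. Of 25 other astrocyte genes, 4 fell with LPS in KO and 15 in WT, at medians of -0.60 and -0.90. Glul, glutamine synthetase, measured 1000 to 1530 TPM in KO LPS, 1210 to 1750 TPM in WT LPS, 2130 to 2570 TPM in KO PBS and 2120 to 3270 TPM in WT PBS, falling by 0.91 in KO and 0.90 in WT (limma adjusted p 0.00238 in each). No other gene of its list exceeded 266 TPM, while the microglial gene Tmem119 lay between 764 and 3770 TPM. The cell in which Glul fell is not given by these data. After median-of-ratios scaling this list held 1 call in KO and 4 in WT in all, Glul included. These were falls, of 4.0% and 16.0% of the list, beside 10.3% and 13.2% of all genes. Of 33 other neuron genes, 1 rose and 1 fell with LPS in KO and 14 fell in WT, or 1 rise with 0 falls and 1 rise with 3 falls after median-of-ratios scaling. The falls were 3.03% in KO and 42.4% in WT, beside 26.9% and 34.1% of all genes. After scaling they were 0.0% and 9.09%, beside 10.3% and 13.2%. Without KO_LPS_3 and WT_PBS_914, 31 of the 33 genes were tested, and 1 rose and 2 fell in KO and 1 rose and 7 fell in WT. There 27.1% of all genes fell in KO and 32.7% in WT. Map1b, which encodes another microtubule-associated protein, fell in WT by 1.75 (limma adjusted p 0.00151). It measured 4.02 to 5.22 TPM in WT LPS, against 14.5 TPM in WT_PBS_904, 12.9 TPM in WT_PBS_913 and 29.6 TPM in WT_PBS_914.

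Reactive astrocyte genes went the other way. With LPS, 10 of 15 rose and 1 fell in KO, and 8 rose and 2 fell in WT. Among the 15 tested, B3gnt5 reached 1 TPM only in LPS libraries, so it passed the filter through them. Of all genes 7.82% rose and 26.9% fell in KO, and 7.95% rose and 34.1% fell in WT. Steap4, a metalloreductase, measured 46.8 to 108 TPM in KO LPS, 56.4 to 185 TPM in WT LPS, 2.60 to 3.93 TPM in KO PBS and 3.63 to 8.54 TPM in WT PBS, with rises of 4.14 in KO (limma adjusted p 1.48e-05) and 3.98 in WT (limma adjusted p 2.41e-05). Cd44, an adhesion receptor, rose by 2.57 in KO (limma adjusted p 3.01e-05) and by 2.08 in WT (limma adjusted p 0.000164). Genes of this list are also made by myeloid and endothelial cells, and the cell in which they rose is not given by these data. Of 23 other oligodendrocyte genes, 2 rose and 1 fell in KO and 1 rose and 2 fell in WT, beside the same shares of all genes. Vcan, the proteoglycan versican of precursor cells and of activated myeloid cells, rose by 2.86 in KO (limma adjusted p 2.37e-05) and by 2.52 in WT (limma adjusted p 7.7e-05). Enpp2, which choroid plexus also makes, fell by 1.56 in KO (limma adjusted p 0.0294) and by 1.90 in WT (limma adjusted p 0.00965). The KO call of Enpp2 was lost after median-of-ratios scaling, and also without KO_LPS_3 and WT_PBS_914.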

How the data were processed

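Total RNA of 14 libraries was sequenced. The authors deposited one table of TPM per gene. Per the submitters' processing notes, the tools were STAR 2.7.10b, featureCounts 2.0.1, FastQC 0.11.9 and cutadapt 4.4; the notes name hg38, a human build, although the gene IDs are those of mouse, so no coordinates of measured genes are used. Strand was not given in the sources used here. Names were found for 41588 IDs and not for 151. The log2 of the deposited TPM plus 1 was fitted with limma 3.58.1 in R 4.3.3 (4 group means, intensity trend, Benjamini-Hochberg adjustment), after keeping 18724 genes with at least 1 TPM in at least 3 libraries. A log2 difference on this scale understates the change of low genes. The fit was tested on simulated data. Multiplying TPM by exon-union length gave whole reads, within 0.02 reads, for 98.4% to 98.6% of values, and voom on those reads was one alternative. KO libraries alone carried Cre, so Cre and loss of Rheb cannot be told apart. The members, the further lists and the rule for naming genes (all members; up to 3 called genes per further list and direction, by smallest adjusted p) were chosen with earlier results of these data known. Other settings tried were other pseudocounts (0.1 and 5), no filter or one at 5 TPM, median-of-ratios and quantile scaling, rescaling without Gm23935 and pituitary genes, no trend, the compared groups alone, the replicate block, and leaving out each library or WT_PBS_914 with KO_LPS_3. Intervals cover the spread between libraries.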

Additional observations from a re-analysis of the deposited data

Results flagged for a closer look

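In groups of 4 libraries, 1 library lay far from the other 3 for 11 of the 72 gene and group pairs examined (36 genes in both LPS groups). The cut-off would flag about 1 in 20 if values were independent and normally spread. Genes of a library moved together here, so the flagged pairs are not separate trials and the rates cannot be compared. In KO_LPS_3, Snap25 at 16.4 TPM, Syt1 at 7.12 TPM, Nefl at 4.68 TPM, Nefm at 8.10 TPM and Slc17a7 at 0.767 TPM were each far above the other KO LPS libraries, whose highest values were 1.90, 0.378, 0.821, 1.51 and 0.294 TPM. In KO_LPS_1, Gfap at 95.1 TPM, Cnp at 82.9 TPM, Ermn at 14 TPM and Ugt8a at 8.52 TPM were far above the rest, whose highest values were 34.6, 49.1, 3.47 and 3.11 TPM. In WT_LPS_3, Aqp4 at 14.5 TPM was below the 23.1 to 23.9 TPM of the other WT LPS libraries. In WT_LPS_1, Sox10 at 6.39 TPM was above the 0.561 to 1.25 TPM of the other WT LPS libraries. Groups of 3 libraries were not examined in this way.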

How the results depend on the processing

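No member was called between KO and WT, nor for the interaction, under any alternative, including leaving out each library (lowest 0, highest 0) and the replicate block (0 under LPS). Over all genes, same-numbered libraries under LPS showed little shared deviation (correlations 0.061, -0.056, -0.086 and -0.026 for numbers 1 to 4). That cannot exclude a shared preparation behind a number. KO_LPS_1 and WT_LPS_1 were both highest of their groups for most astrocyte and oligodendrocyte genes. PBS groups share no number. For LPS against PBS in KO, 4 calls became 2 with no filter, 0 with median-of-ratios scaling, 1 with quantile normalisation, 2 when rescaled without Gm23935 and pituitary genes and 0 with voom. In that order, 4471 of 29186, 1921 of 18724, 2925 of 18724, 3467 of 18872 and 2473 of 18713 genes fell. Leaving out single libraries gave 1 to 8 calls. In WT, 8 calls became 5 with no filter, 4 with median-of-ratios scaling, 5 with quantile normalisation and 5 with voom. In that order, 6003 of 29186, 2471 of 18724, 3349 of 18724 and 4724 of 18713 genes fell. Leaving out single libraries gave 4 to 15 calls. The cause was not tested, apart from the shift of the median that scaling removes. Sox9, Map2, Clu and Aqp4 in WT were called under all 25 alternatives, and Clu in KO under 22 of 25. Over 155 gene results, 80 of 3825 alternative values lost a call, 36 gained one and none reversed one, while 146 values of uncalled genes changed sign. Levels under 1 TPM rest on few reads.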
